A study of Mus musculus with 6 samples.

Results

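The genes described here are 10 mouse counterparts of genes in which variants have been tied to glaucoma or to intraocular pressure (IOP) in people: Myoc, Optn, Tbk1, Cyp1b1, Tmco1, Cav1, Cav2, Six6, Txnrd2 and Ltbp2. They were taken as a list by name, with earlier results of these data known, and no measured value entered the rule. They make up 10 of the 21938 protein-coding genes of the annotation. For each gene, peaks of acetylated histone H3 lysine 27 (H3K27ac), a mark of active promoters and enhancers, were collected within 2.5 kb of any transcription start site (TSS) and over the gene body with 20 kb on either side, here called the locus. The data were 6 peak lists, each called on a ChIP-seq sample of bulk retina from wild-type (WT) mice that were 3 months old at the first pressure elevation. The 4xIOP group (n = 3) was exposed to unilateral elevation of the IOP to 30 mmHg for 1 h, 4 times in total and every other week, and the control group (n = 3) was the contralateral eye, left without elevation. Retinas of both groups were taken 2 days after the final elevation. The protocol shared by the samples also describes an injection of dasatinib or vehicle, but the labels of these 6 samples name none. The labels do not tie a control retina to a 4xIOP retina of the same animal, nor do they say whether each list is 1 animal, so the spread given here is that between lists.

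The names carried inside 4 of the 6 lists (control replicates 1 and 2, 4xIOP replicates 1 and 2) were those of the other group. Groups were kept as labelled. Unless the carried names are given, every direction, overlap and lack of calls between groups below holds for the labels only. No test was run with the groups formed by the carried names. The lists held 16195 to 36509 peaks, the longest being control replicate 3, and the background recovered from them was 87.4 to 173 fragments per 10 kb. The weakest peak of each list had 9 to 12 fragments at its summit, or 3.55 to 4.48 times the mean background of that list, so acetylation under this level was not detectable. Peaks were called against the local background, so the limit was higher where that background was above the mean. Of 9 retina markers, 4 had a promoter peak in all 6 lists, among them Nrl, Rcvrn and Otx2, whereas Rlbp1 of Müller glia and Pou4f1 of ganglion cells had none and Thy1 had 1 only in control replicate 3. None of the 15 markers of pigment epithelium, cornea and lens, microglia, endothelium or other tissue had a promoter peak in any list. In bulk retina, a gene used by few cells and a gene used weakly by many cells cannot be told apart.

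Glaucoma is the progressive loss of retinal ganglion cells and their axons, and age and raised IOP are among its known risk factors. The 10 genes act at different points of the eye. Myoc (a secreted glycoprotein of the trabecular meshwork), Cyp1b1 (a cytochrome P450 linked to congenital glaucoma) and Ltbp2 (a matrix protein of microfibrils, also linked to congenital glaucoma) belong mainly to the front of the eye and its outflow tissue. Cav1 and Cav2 encode the caveolins that shape caveolae, membrane pits abundant in endothelium. Optn (an autophagy receptor) and Tbk1 (the kinase that phosphorylates it) are altered in normal-tension glaucoma. Six6 is a homeobox regulator of eye development, Txnrd2 is the mitochondrial thioredoxin reductase, and Tmco1 is a calcium channel of the endoplasmic reticulum.

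The sequences of 5 windows are shown because they carry the main contrasts of the data: a pair of CpG-rich promoters that were acetylated in every list, a pair of regions outside the promoters of the genes themselves that were called in every list, and a promoter that had no peak in any list. Each window is 200 bases of the GRCm38 reference without an annotated exon, as near as possible to the median summit, or upstream of the TSS for Myoc. Capitals mark GGGCGG, the GC box bound by SP factors, or GGATTA, the core site of the photoreceptor factors CRX and OTX2, on either strand. The promoters are written along the gene and the other regions along the plus strand.
Tmco1 promoter (chr1:167308178-167308377, plus strand): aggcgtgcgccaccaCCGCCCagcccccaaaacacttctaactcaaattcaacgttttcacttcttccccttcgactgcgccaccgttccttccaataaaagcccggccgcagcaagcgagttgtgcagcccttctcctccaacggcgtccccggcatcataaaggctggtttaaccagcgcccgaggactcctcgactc
Tbk1 promoter (chr10:121586841-121587040, minus strand): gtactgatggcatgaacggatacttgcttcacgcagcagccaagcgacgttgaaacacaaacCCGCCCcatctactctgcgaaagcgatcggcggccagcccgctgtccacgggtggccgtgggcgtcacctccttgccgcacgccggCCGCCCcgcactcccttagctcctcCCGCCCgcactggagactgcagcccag
Optn upstream region (chr2:5083458-5083657, plus strand): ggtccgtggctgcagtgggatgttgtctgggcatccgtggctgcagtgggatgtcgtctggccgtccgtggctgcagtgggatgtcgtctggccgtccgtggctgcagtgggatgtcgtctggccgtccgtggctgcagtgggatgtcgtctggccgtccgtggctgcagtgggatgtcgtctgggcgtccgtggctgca
Six6 downstream region (chr12:72945607-72945806, plus strand): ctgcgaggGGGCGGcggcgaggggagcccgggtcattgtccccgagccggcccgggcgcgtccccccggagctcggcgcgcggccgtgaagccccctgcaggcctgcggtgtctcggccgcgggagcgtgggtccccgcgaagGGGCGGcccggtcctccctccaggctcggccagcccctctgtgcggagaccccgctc
Myoc promoter, no peak (chr1:162638905-162639104, plus strand): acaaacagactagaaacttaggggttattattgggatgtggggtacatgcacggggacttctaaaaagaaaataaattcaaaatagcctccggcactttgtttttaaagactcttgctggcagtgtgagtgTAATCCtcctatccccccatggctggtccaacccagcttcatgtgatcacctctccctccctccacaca

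A GC box was present once in the Tmco1 window, 3 times in the Tbk1 window and 2 times in the Six6 downstream window. Among 200-base windows at the summits of all regions called in all 6 lists, 46.7% of 8246 windows near a protein-coding TSS and 15.4% of 2283 windows away from such a TSS held it. The CRX and OTX2 core occurred once, in the Myoc window, and was found in 1.83% of the windows near a TSS and 4.91% of those away from a TSS. The searches for TAATTA, a homeodomain core, and CCAAT on both strands found 0 matches to TAATTA in these windows, and CCAAT 1 time each in the Tmco1 and Myoc windows. TAATTA was held by 0.691% of the windows near a TSS and 2.01% of those away from it, and CCAAT by 9.01% and 16.3%. The Optn upstream window differed from the others in that it was a tandem repeat: 96.4% of its bases were equal to the base 31 positions further on. The best such match at any lag of 2 to 100 bases was 34.9% to 44.0% in the other windows shown. Of all 10529 shared regions, 29 windows (0.275%) reached 80% at some lag, 27 of them away from a TSS.

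Promoter peaks were called in every list at 4 of the 10 genes, in some lists at 2 and in no list at 4, shares near those of the genome (plot of promoter peaks by gene). Tmco1, Tbk1, Optn and Txnrd2 had a promoter peak in all 6 lists, as did 39.5% of all protein-coding genes. Myoc, Cyp1b1, Cav1 and Ltbp2 had none in any list, as did 42.4% of all genes. Cav2 was marked only in control replicate 3, and Six6 in control replicate 3 and 4xIOP replicates 1 and 2. The count of marked genes among the 10 was 4, 4 and 6 in the control lists (replicates 1, 2 and 3, an order kept for all values below), where 48.6%, 46.2% and 56.9% of all genes were marked. Among the 4xIOP lists it was 5, 5 and 4, where 47.4%, 45.7% and 44.6% of all genes were marked. The lists with 5 or 6 marked genes (control replicate 3 and 4xIOP replicates 1 and 2) were the 3 that carry the name of the control group, and the other 3 lists had 4 each. By label, the means were 4.67 ± 1.15 in control and 4.67 ± 0.577 in 4xIOP (SD, n = 3), with a difference of 0. With only the 2 lists whose carried name is that of their label, the difference was -2 genes, from 6 in control replicate 3 to 4 in 4xIOP replicate 3. With the groups as labelled, none of the 10 promoters was marked in all lists of one group and none of the other. By the carried names, Six6 was marked in the 3 lists named control and in none of the 3 named 4xIOP. The exclusive pattern by label was seen in 79 genes of the genome (0.36%) with the mark in control and in 0 genes (0%) with the mark in 4xIOP.

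**Figure D1:**
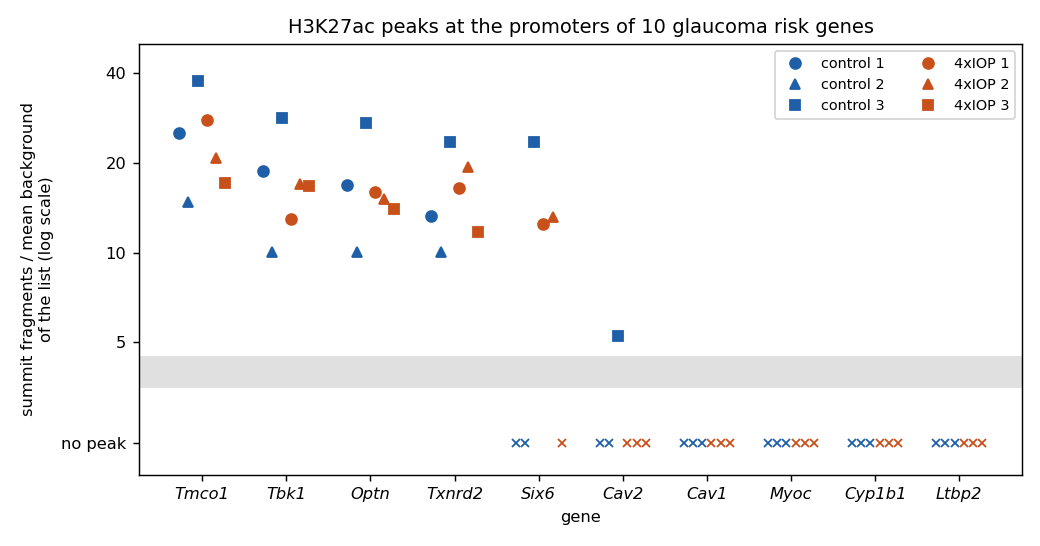
Peaks at the promoters of the 10 genes. Each point is 1 list and gives the fragments at the summit of the promoter peak divided by the mean background of the list (log scale), crosses mark lists without a promoter peak, and the grey band spans the weakest peak of the 6 lists (3.55 to 4.48). Tmco1, Tbk1, Optn and Txnrd2 lie above the band in every list, and the control and 4xIOP points overlap for each of them. The limit for a call was above the band where the local background was above the mean.

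The 300 bases from 250 upstream to 50 downstream of the 5′-most TSS had an observed to expected CpG ratio of 1.06 in Tbk1, 0.923 in Tmco1, 0.901 in Optn and 0.725 in Txnrd2. All 4 were above 0.6, as were 78.8% of the 8669 promoters marked in all lists and 46.4% of all promoters. The ratio was 0.115 in Myoc, 0.535 in Cav1 and 0.518 in Cav2. Cyp1b1 and Ltbp2 had no peak in any list although their ratios were 0.642 and 0.629, and of all promoters above 0.6, 11.1% had no peak in any list. Six6, with a ratio of 0.713, was marked in 3 lists.

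Tmco1 (ENSMUSG00000052428.10, chr1:167308378-167333978, plus strand) had the highest promoter fold of the members. The fragments at the summit were 55, 50 and 93 in control and 56, 44 and 44 in 4xIOP. The peak fold, which is the authors' ratio of the summit pile-up to the local background, was 9.34, 7.57 and 12.1 in control and 10.7, 9.14 and 9.16 in 4xIOP. Control replicate 3 was highest on both measures, and the groups overlapped. The fold was above that of 96.6% to 99.7% of all peaks of its list. The summit lay within 42 bp of the TSS in all lists, and a second peak region called in all lists (chr1:167308727-167309125) lay over a coding exon 552 bp into the gene.

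Tbk1 (ENSMUSG00000020115.3, chr10:121546455-121586787, minus strand) had a promoter peak of 979 to 1275 bp in 5 lists and 2 shorter peaks in 4xIOP replicate 3. The summit fragments were 41, 34 and 70 in control and 26, 36 and 43 in 4xIOP. The fold was 6.57, 5.15 and 8.21 in control and 4.54, 6.43 and 7.60 in 4xIOP, so the lowest value was that of 4xIOP replicate 1 and the groups overlapped. It was above 61.4% to 96.1% of the peaks of its list. A second region (chr10:121568504-121570250) lay in an intron 17.4 kb into Tbk1, with no TSS under it, and was called in all 6 lists. Its summit fragments were 29, 29 and 55 in control and 22, 30 and 22 in 4xIOP, again overlapping.

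Txnrd2 (ENSMUSG00000075704.16, chr16:18426384-18479073, plus strand) had a promoter peak in all 6 lists that cannot be assigned to this gene alone. The region (chr16:18425690-18426807) had 29, 34 and 58 summit fragments in control and 33, 41 and 30 in 4xIOP. Its fold was 4.93, 4.95 and 6.65 in control and 5.11, 6.68 and 5.24 in 4xIOP, with the groups overlapping. No other peak lay inside the gene body in any list.

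Optn (ENSMUSG00000026672.11, chr2:5020642-5064051, minus strand) was marked in all lists, but its fold was the lowest of these 4 genes. The summit fragments were 37, 34 and 67 in control and 32, 32 and 36 in 4xIOP, close to those of Txnrd2. The fold was 3.35, 3.20 and 3.28 in control and 2.39, 2.56 and 3.91 in 4xIOP, and the values of 4xIOP lay on both sides of the control values. The summits lay 174 to 241 bp past the nearer of its 2 TSSs, except in 4xIOP replicate 1, where the summit was 802 bp past it. The fold fell above only 2.80% to 37.0% of the peaks of its list, whereas the summit fragments were above 54.1% to 79.2%. The fold divides the summit by the density of the same library in the 10 kb around it, and that density was 2.94 to 7.99 times the mean background at the Optn promoter. The retina marker Otx2 also had a low fold rank with many fragments: its fold was above 0.502% to 8.53% of the peaks of its list, and its summit fragments were 21.8 to 48.6 times the mean background.

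The region richest in fragments in any of the 10 loci was not a promoter but an intergenic region upstream of Optn (chr2:5083180-5083829), with its summit, in the tandem repeat shown above, 19.5 kb from the TSS. Over the whole region, 56.1% of bases were equal to the base 31 positions further on, so the repeat made up only part of it. It had 95, 99 and 143 summit fragments in control and 97, 111 and 61 in 4xIOP, and the groups overlapped. These were 43.3, 29.3 and 57.9 times the mean background in control and 48.2, 52.3 and 23.8 times in 4xIOP. The summit fragments were above those of 98.1% to 99.7% of the peaks of each list, while the fold of 3.78 to 4.38 was near the middle of each list (44.2% to 61.8%). The 10 kb around it held 1079, 1136 and 1986 fragments in control and 1000, 1117 and 693 in 4xIOP, against a mean of 87.4 to 173 per 10 kb of genome. This was 5.13 to 15.0 times the mean and above the 95th percentile of all peaks in each of the 6 lists. Across the shared regions, the density was a median of 1.49 times the mean at the 29 tandem repeat windows (quartiles 1.00 and 5.57) and 2.66 times at the others (quartiles 1.90 and 4.12). The part of the repeat in the number of fragments at Optn was not tested: neither reads nor an input library were analysed here, so reads that map to several copies of the repeat could not be checked, and the fragments cannot be taken as acetylation with certainty. A further 3 regions, called in 1 or 2 lists each, lay between it and the gene.

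**Figure D2:**
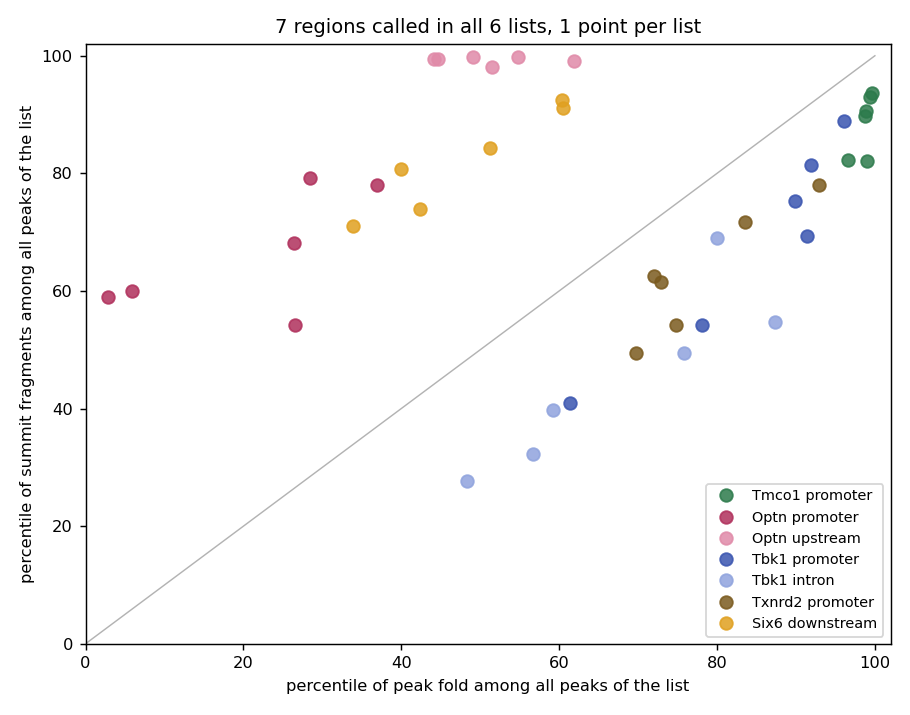
Rank of fold and rank of summit fragments for the 4 promoters and 3 regions outside the genes' own promoters called in all 6 lists. Each point is 1 list, the axes give percentiles among all peaks of that list, and the line marks equal ranks. The Optn promoter, the Optn upstream region and the Six6 downstream region lie above the line in every list, and the Tmco1, Tbk1 and Txnrd2 regions lie below it.

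Six6 (ENSMUSG00000021099.6, chr12:72939892-72944899, plus strand) was the member with the most uneven promoter. Its promoter peak had 58 summit fragments in control replicate 3, 25 in 4xIOP replicate 1 and 28 in 4xIOP replicate 2, with folds of 3.46, 2.62 and 3.16. The local background at these peaks was 6.50, 4.44 and 3.85 times the mean, so a call there needed more fragments than the weakest peak of the list. No peak was called in control replicates 1 and 2 or in 4xIOP replicate 3. The 3 lists with the peak are those whose carried name is that of the control group. Only 57 protein-coding genes (0.26%) were marked in exactly these 3 lists. The peak also lay at a TSS of the protein-coding gene 4930447C04Rik, in whose intron its summit lay, so it cannot be assigned to Six6 alone. In contrast, a GC-rich region downstream of Six6 (chr12:72945164-72946200), 5.87 kb from its TSS and beside a TSS of the noncoding Gm26709, was called in all 6 lists. It had 56, 44 and 69 summit fragments in control and 54, 46 and 33 in 4xIOP. The window shown for it had a GC content of 80.5% and 28 CpG dinucleotides. Its density over 10 kb was 3.08 to 7.38 times the mean, and its fragments were above those of 71.1% to 92.4% of the peaks of each list.

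Few peaks were called at the promoters or in the gene bodies of the outflow and caveola genes (map of the loci). The Cyp1b1 locus (gene at chr17:79701537-79715061, minus strand, ENSMUSG00000024087.4) and the Cav1 locus (gene at chr6:17306335-17341452, plus strand, ENSMUSG00000007655.16) held no peak in any list, as did 29% of all protein-coding loci. Myoc (ENSMUSG00000026697.10, chr1:162639155-162649693, plus strand) had 1 peak in its locus, in control replicate 3, 26.8 kb past the TSS and beyond the end of the gene, with 23 summit fragments. Cav2 (ENSMUSG00000000058.6, chr6:17281185-17289115, plus strand) had its single peak in control replicate 3, with the summit 66 bp past the nearest of its 3 TSSs, with 13 summit fragments or 5.27 times the mean background, close to the weakest peak of that list at 3.65 times. The same pattern, a promoter marked only in control replicate 3, was found in 1147 genes (5.23%). Ltbp2 (ENSMUSG00000002020.15, chr12:84783212-84876532, minus strand) had no peak in its gene body or on its 5′ side, and the 4 regions of its locus lay beyond its 3′ end, in Npc2 or at the promoters of Npc2 and Isca2. Npc2 encodes a lysosomal cholesterol carrier and Isca2 a protein of mitochondrial iron-sulfur cluster assembly.

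**Figure D3:**
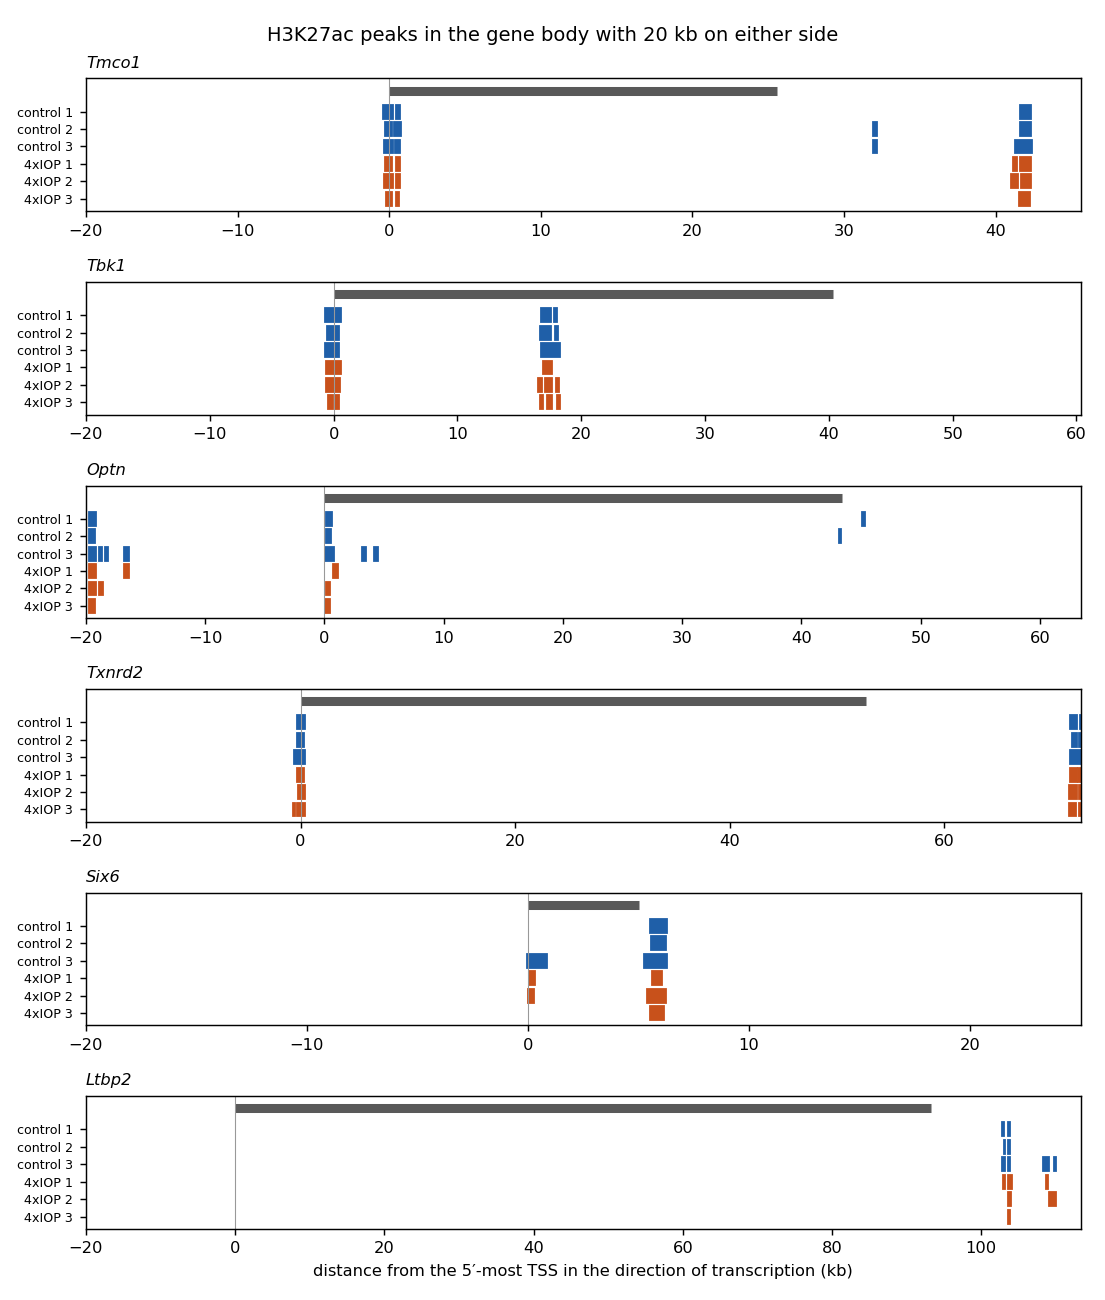
Peaks in 6 of the 10 loci. The horizontal axis is the distance in kb from the 5′-most TSS in the direction of transcription, the dark bar is the gene body, and each row is 1 list with its peaks as blue (control) or orange (4xIOP) boxes. The Optn upstream region, the Tbk1 intron region and the region past Six6 appear in every row, and the Ltbp2 gene body has no peak.

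In all, the 10 loci held 25 regions in the union of the lists. Of these, 11 were called in all 6 lists, 7 in 2 to 5 lists and 7 in 1 list, and 5 of the 7 single calls came from control replicate 3. Among all 39942 regions of the genome 26.4% were called in all 6 lists and 37.4% in 1. By position, 7 regions lay at a promoter of the gene itself, 6 only at a TSS of another gene and 12 at no TSS. The peaks per list numbered 15, 16 and 23 in control and 17, 18 and 16 in 4xIOP, with means of 18.0 ± 4.36 and 17.0 ± 1.00 (SD, n = 3). The difference of -1 peak was within the spread between lists. It became -2.5 without control replicate 1, -2 without control replicate 2 and 1.5 without control replicate 3. The difference was 1.67 when lists were cut to equal length, and -7 in the 2 lists whose carried name is that of their label. The covered length was 8.08, 7.55 and 14.7 kb in control and 8.40, 9.55 and 6.53 kb in 4xIOP. The 3 lists that carry the name of the control group (control replicate 3 and 4xIOP replicates 1 and 2) had more peaks in the loci and more covered length than each of the other 3. This did not hold over all chromosomes. There, control replicate 1 had 21893 peaks over 10.83 Mb. The values were 20338 over 10.18 Mb in 4xIOP replicate 1 and 20804 over 10.35 Mb in 4xIOP replicate 2.

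Whether acetylation at these genes differed between the groups as labelled was tested on the rank of the fold within each list. The rank was expressed as a normal score, so that lists of unequal depth could be compared. Across the 8669 promoters marked in all lists, limma with Benjamini-Hochberg adjustment called 0 genes (0%), and 270 (3.11%) had an unadjusted p under 0.05. None of the 4 members was among the 270. The difference of 4xIOP minus control was 0.53 ± 0.37 (SE) for Tmco1, 0.52 ± 0.39 for Txnrd2, 0.20 ± 0.45 for Tbk1 and -0.33 ± 0.43 for Optn, on a scale where the SD over all promoters is 1. The adjusted p of limma was 0.9996 for each. The sign of the Optn difference turned to 0.016 without 4xIOP replicate 1 and to 0.24 with ranks of the summit fragments, and that of Tbk1 turned to -0.27 without 4xIOP replicate 3. The Txnrd2 difference was 0.17 without 4xIOP replicate 2, and that of Tmco1 was 0.34 without 4xIOP replicate 1. The summit fragments over the mean background were 25.8 ± 11.5 against 21.9 ± 5.45 for Tmco1 (control against 4xIOP, SD, n = 3, two-sided exact permutation p = 0.7). For Tbk1 they were 19.0 ± 9.15 against 15.6 ± 2.27 (exact p = 0.7), for Optn 18.0 ± 8.60 against 15.0 ± 0.944 (exact p = 0.7) and for Txnrd2 15.6 ± 7.02 against 15.8 ± 3.85 (exact p = 1). With 3 lists against 3 the smallest p that this test allows is 0.1. Ranked among the marked promoters of each list, the fold of Tmco1 was above 97.8%, 93.4% and 98.1% of promoters in control and 99.7%, 98.2% and 98.7% in 4xIOP, so the groups did not overlap (exact permutation p = 0.1). The same rank of summit fragments did not overlap for Txnrd2, at 42.6%, 48.9% and 48.0% in control and 56.2%, 78.4% and 59.8% in 4xIOP (exact permutation p = 0.1). The other 3 members overlapped on each rank. Over the 8669 promoters, every 4xIOP list was above every control list in 2.33% by fold and 1.86% by summit fragments, and below in 6.37% and 7.13%.

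The same test over the 10529 regions called in all lists gave 0 calls (0%) with limma, 334 regions (3.17%) with an unadjusted p under 0.05, and none of these among the 11 regions of the 10 loci. The difference in score was 0.31 ± 0.32 (SE) for the Optn upstream region, 0.11 ± 0.35 for the Tbk1 intron region, 0.29 ± 0.33 for the Six6 downstream region and -0.41 ± 0.41 for the second Tmco1 region. The largest difference in size, -0.57 ± 0.36, was found at the edge of the Txnrd2 locus under the TSSs of Gnb1l and Rtl10 (chr16:18497963-18499515), with an unadjusted p of 0.129 and an adjusted p of 0.9999 in limma. The fold there was 8.47, 8.54 and 7.92 in control and 6.60, 5.71 and 6.10 in 4xIOP, and the summit fragments were 52, 59 and 73 against 41, 36 and 30. Every 4xIOP value lay below every control value on both measures (exact permutation p = 0.1, the smallest possible). No other of the 11 regions had a fold that separated the groups. Among all shared regions, the fold of every 4xIOP list was below every control list in 9.18% of regions, and above every control list in 0.655%. No such share is given here for the summit fragments. At Gnb1l and Rtl10, the summit fragments divided by the mean background of the list overlapped between the 2 groups. Ranked among all peaks of each list, the fold there also overlapped (exact permutation p = 0.2), while the summit fragments did not (exact permutation p = 0.1).

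**Figure D4:**
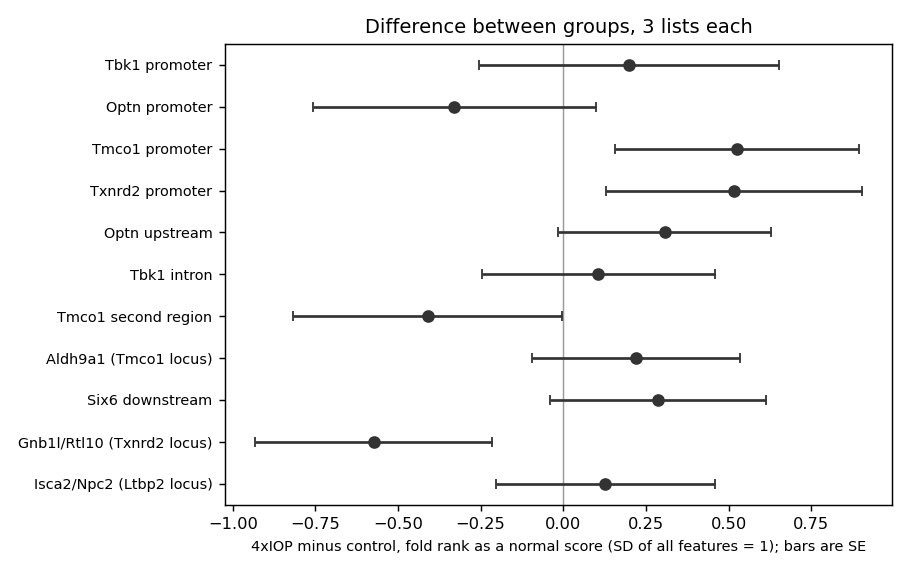
Difference in the normal score of the fold rank, 4xIOP minus control, for the 4 promoters and 7 other regions of the loci called in all 6 lists. Points are estimates of limma from 3 lists against 3 and bars are SE. The promoters were scored among 8669 promoters and the other regions among 10529 regions, so the 2 sets come from separate fits. The estimates run from -0.57 at Gnb1l and Rtl10 to 0.53 at the Tmco1 promoter, and none passed an adjusted p of 0.05.

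Genes that work with the members were read from lists chosen by function (plot of shares by gene list). The genes of selective autophagy and partners of Tbk1, read as 1 list, were widely acetylated. Of these, 11 of 14 promoters were marked in all lists, 2 in some and 1, Ikbke, in none, against 39.5% of all genes in all lists and 42.4% in none. The autophagy receptors Sqstm1 and Nbr1 were marked in all 6 lists, with the fold above 76.0% to 96.9% and 77.2% to 93.0% of peaks. Gabarapl1 and Gabarap, which encode proteins of the autophagosome membrane, were also marked in all lists, with the fold above only 2.12% to 20.1% and 17.7% to 58.5% of peaks. Among 6 genes of the thioredoxin system around Txnrd2, 5 were marked in all lists, including Txn2, the mitochondrial thioredoxin. Txnrd3, a testis-enriched thioredoxin glutathione reductase, was marked in 1 control list and all 3 4xIOP lists. Of 7 caveola components other than Cav1 and Cav2, 5 were marked in no list and none in all 6. Of 10 genes of microfibrils and TGF-beta, 1 (Ltbp3) was marked in all lists, 4 in some and 5 in none, the last including Ltbp1 and Ltbp4. Tgfb3, a TGF-beta ligand, was marked in all 3 control lists and 1 4xIOP list. Tgfb3 and Txnrd3 were named by the rule of a difference of at least 2 lists between groups, and neither separated the groups. The share of all genes with such a difference is not given here, so no group effect is read from them.

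**Figure D5:**
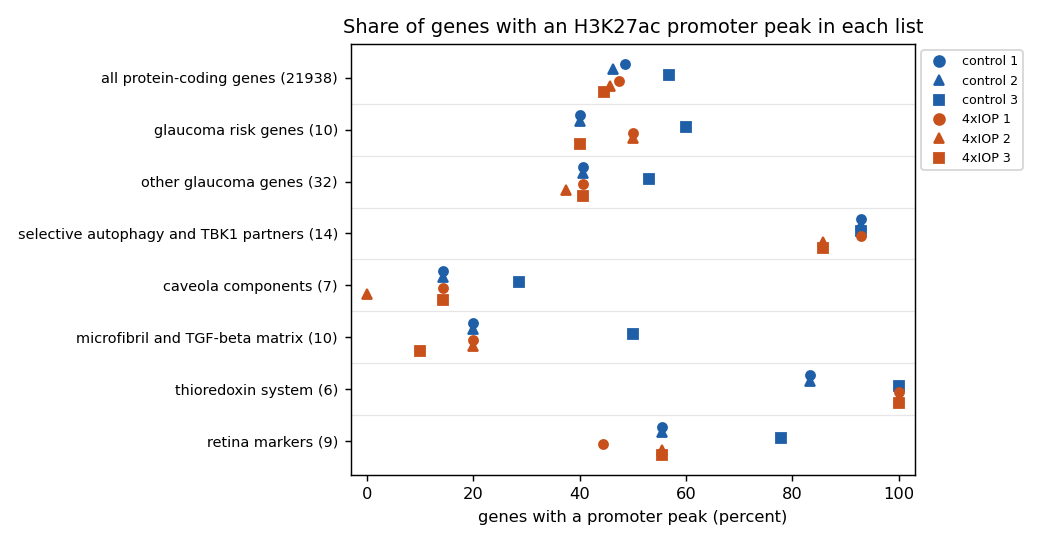
Percent of genes with a promoter peak in each of the 6 lists, for all protein-coding genes, the 10 glaucoma risk genes, 5 lists of related genes and retina markers (number of genes in parentheses). Each point is 1 list, blue for control and orange for 4xIOP. Selective autophagy genes and Tbk1 partners lie at 85.7% to 92.9% and caveola components at 0% to 28.6%, against 44.6% to 56.9% for all genes.

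Of a further 32 glaucoma genes outside the 10, 12 (37.5%) were marked in all lists, 14 in none and 6 in some, shares near those of all genes (39.5% in all lists and 42.4% in none). Those in all lists included Abca1 (a lipid exporter), Arhgef12 (an activator of small GTPases), Atoh7 (the factor that specifies ganglion cells) and Cdc7 (a replication kinase). Those in none included Angpt1 and its receptor Tek, and the developmental factors Foxc1, Lmx1b and Pax6. The mean share marked was 44.8% in control and 39.6% in 4xIOP, against 50.6% and 45.9% of all genes. The median score difference was -0.21 over the 12 tested genes of this list and 0.05 over 11 genes of the list of selective autophagy and Tbk1 partners. It was -0.23 over 5 thioredoxin genes and 0.36 over the 4 members, against 0.0049 over all 8669 promoters. None of these genes had an adjusted p under 0.05 in limma, and 0 had an unadjusted p under 0.05.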

How the data were processed

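H3K27ac ChIP-seq of retina was analysed from 6 narrowPeak lists, called by the authors for each sample alone. Per the labels the build was mm10 (GRCm38), and the submitters' processing notes name MACS2, STAR 2.7.8a and bedtools 2.29.2 without their roles. The aligner and the threshold for the ChIP-seq data are not given in the sources used here. The lowest deposited −log10 q-value was 1.31. The deposited fold (a ratio), −log10 p-value and −log10 q-value are the authors' values at each summit, and the deposited integer score was not used.

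Whole summit fragments and the local background were recovered from fold and p under the Poisson model (fold = (fragments + 1) / (background + 1)) for at least 99.99% of peaks, within 0.001 of the −log10 p. The lowest background was taken as the mean of the list. Higher backgrounds were whole fragments per 10000 bp of the same library in 100% of tested peaks (tolerance 0.1). Intervals for counting error are not given, since the fragments carry no molecular identifiers. Promoters (2.5 kb around 41525 TSS positions, GENCODE vM21 basic) were marked from 1 bp of overlap. Overlapping or adjoining peaks of the 6 lists were merged into regions.

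The highest fold was ranked within each list, turned into normal scores and tested with limma 3.58.1 (R 4.3.3, adjusted p of 0.05), after a test on simulated data. Single values were compared with exact permutation tests (scipy 1.17.1). The 10 genes and the related lists were chosen with earlier results of these data known. Named genes were the 10, genes with a TSS under a peak of their loci, and at most 3 genes per list that differed by at least 2 lists between groups. Other genes of the lists and markers are named as examples and were chosen after their values were seen. Alternatives were a −log10 q of at least 5, the 16195 top peaks of each list, promoters of 1 kb, 200 bp of overlap, no flanks, other scores, the shortest-peak length class (200 bp) as a term, a replicate block, each list left out and the lists with matching names alone. Sequences were read from GRCm38.p6 of RefSeq. Some genes of the lists and loci are not reported here by name.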

Additional observations from a re-analysis of the deposited data

How the results depend on the processing

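The count of calls by limma was 0 for promoters and regions under every alternative run, and the number with an unadjusted p under 0.05 ranged from 179 to 479 promoters and from 252 to 702 regions, the highest counts without 4xIOP replicate 3. With only the 2 lists whose carried name is that of their label, the difference in marked members was -2 and that in peaks of the loci was -7. The difference in marked members, 0 over the 6 lists, became -0.667 under the stricter threshold (−log10 q of 5 or more) and also with equal numbers of top peaks. Omitting single lists moved it both ways, between -0.333 and 0.667, the highest value being that without control replicate 3. The Optn score difference turned to 0.24 with ranks of the summit fragments, and leaving out each list in turn gave -0.84 to 0.016 for Optn and -0.27 to 0.78 for Tbk1. Optn has no value with a −log10 q of at least 5 or with the same number of top peaks, since its promoter was then not marked in all lists. The −log10 q of the Optn promoter peak was 3.10 in 4xIOP replicate 1 and 3.69 in 4xIOP replicate 2, under the limit of 5. Lists of the same replicate number did not deviate together (correlations of -0.021, -0.057 and -0.15), and with the replicate block the difference in marked members stayed 0 and limma made 0 calls. Tmco1 and Txnrd2 kept their sign under every alternative run, with 0.34 to 0.65 and 0.17 to 0.73 when each list was left out. The difference in peaks of the loci turned from -1 to 1.67 with the same number of top peaks. Fragments per summit of 9 to 12 limit what a list can show, so a missing peak is no measure of absence.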

Other observations

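Neighbouring genes within 20 kb of the members held acetylation of their own. The promoter of Aldh9a1, an aldehyde dehydrogenase gene past the end of Tmco1 (chr1:167349420-167350775), was called in all 6 lists with 44, 35 and 84 summit fragments in control and 44, 41 and 29 in 4xIOP, and the groups overlapped. The region shared by Isca2 and Npc2 beyond Ltbp2 (chr12:84772460-84772970) was called in all 6 lists with 22, 38 and 66 summit fragments in control and 35, 34 and 24 in 4xIOP, also overlapping. A second region at these promoters (chr12:84773309-84773694) was called in 3 control lists and 1 4xIOP list, with 21, 32 and 42 summit fragments in control and 26 in 4xIOP replicate 1. At Gm25911, a small noncoding gene past Tmco1 (chr1:167340259-167340581), 2 control lists and no 4xIOP list had a peak, with 19 and 16 summit fragments. The share of all regions with calls as uneven as in the last 2 regions is not given here, so no group effect is read from them. The neighbouring genes were named because their TSS lay under a peak of a member locus.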
